A study of Mus musculus with 8 samples.

Results

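The 7 genes described here, Ccr1, Ccr2, Cx3cr1, Cxcr4, Cxcr2, Ccr7 and Ccrl2, encode chemokine receptors of monocytes, macrophages and cells recruited beside them. They were chosen by name, and the rows of these symbols were read from a count file of 23413 gene symbols, in which 7 of 7 were found. RNA was sequenced from tumor-associated macrophages (TAMs) of B16F10 melanoma, a transplantable mouse tumor, in 8 mice with 1 library each, to ask how thiostrepton, a thiopeptide antibiotic, alters TAM expression by each route of dosing. The vehicle DMSO went to 2 mice, while thiostrepton was injected intraperitoneally (I.P.) in 4 mice, and it was injected next to the tumor (S.C., named IS in the labels) in 2 mice. Doses were given 6 and 12 days after engraftment, and TAMs were sorted on day 18 as CD45+F4/80+CD11b+Gr-1- cells, so that every group shared the tumor, the sort and the days. The S.C. dose was 20 mg/kg, while the I.P. dose of these mice and the route of the DMSO mice were not named in the sources used here. The study calls the S.C. dose lower than its I.P. doses, so route and dose cannot be told apart. The labels give no genotype, age or sex; for its melanoma model the study used male B6 mice aged 8 to 10 weeks.

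Chemokine receptors are G protein-coupled receptors that steer leukocytes along gradients of small secreted proteins. CCR2 draws classical monocytes from the blood into inflamed tissue and tumors, where they become macrophages, CX3CR1 marks patrolling monocytes and many tissue macrophages, and CCR1 binds inflammatory CC chemokines. CXCR4 holds leukocytes near sources of CXCL12, CXCR2 is the main receptor of neutrophils for ELR+ CXC chemokines, CCR7 guides dendritic cells and lymphocytes to lymph nodes, and CCRL2 is an atypical receptor that binds chemerin without the usual signal.

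On GRCm38, the assembly of mm10, 4 of the 7 genes lie on chromosome 9. In GENCODE vM21, Ccr1 spans chr9:123962124-123968692 on the minus strand and Ccr2 chr9:124101950-124113557 on the plus strand, with Ccr3 between them. Cx3cr1 lies at chr9:119901616-120069879 and Ccrl2 at chr9:111054486-111057519, both on the minus strand. Cxcr2 lies at chr1:74153989-74161246 on the plus strand, Cxcr4 at chr1:128588199-128592293 on the minus strand, and Ccr7 at chr11:99144196-99155077 on the minus strand. All are annotated as protein-coding.

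The promoters of Ccr2 and Ccrl2 are shown because these genes were the 2 receptors that met the DEG criterion against DMSO. Each is the 250 bases before a start site of the gene (RefSeq, GRCm38.p6), written 5′ to 3′ on the strand of the gene, at chr9:124101933-124102182 (+) for Ccr2 and chr9:111057519-111057768 (-) for the most upstream of 3 listed starts of Ccrl2. Capitals mark a match to the NF-kB (kB) motif.
Ccr2: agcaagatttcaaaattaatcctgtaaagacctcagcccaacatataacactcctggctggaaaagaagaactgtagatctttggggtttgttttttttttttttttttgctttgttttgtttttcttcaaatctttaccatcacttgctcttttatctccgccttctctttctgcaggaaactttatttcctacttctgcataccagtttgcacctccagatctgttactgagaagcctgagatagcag
Ccrl2: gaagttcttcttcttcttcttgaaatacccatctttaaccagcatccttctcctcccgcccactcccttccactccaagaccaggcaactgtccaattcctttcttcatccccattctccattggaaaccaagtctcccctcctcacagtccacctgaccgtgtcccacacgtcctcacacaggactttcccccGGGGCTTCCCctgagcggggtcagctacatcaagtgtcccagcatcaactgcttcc

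The kB match of Ccrl2 began 56 bases before the start, on the strand of the gene. Of 4 motifs searched on both strands, namely kB, PU.1 (GAGGAA), IRF (GAAA, any 2 bases, GAAA) and C/EBP (TTGCNNAA), none matched in the Ccr2 window. RefSeq promoters were found for 6 of the 7 genes, and Ccr7 had no entry. The Ccr1 window held a kB match at 74 bases and a PU.1 match at 129 bases before the start, and the Cxcr2 window held a PU.1 match at 81 bases on the other strand. The Cx3cr1 and Cxcr4 windows and those of the other 2 Ccrl2 starts held no match. Most of the Ccr2 window lies inside the GENCODE span of the gene, which starts at chr9:124101950. The Cx3cr1 window, chr9:120068297-120068546, lies wholly inside the span of its gene, which begins at 120069879 on the minus strand. For these 2 genes the bases before the outermost GENCODE start were therefore mostly or wholly not searched. Among 32851 promoters of the same length, kB matched in 7.25%, PU.1 in 23.3%, IRF in 2.98% and C/EBP in 9.56%. A match is a string of letters and was not tested as a binding site.

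Between 14127506 and 17577466 reads were counted per mouse. Counts are given as CPM, that is, scaled to the library size after TMM normalization, and 3 counts, taken as the floor of detection, were worth 0.169 to 0.218 CPM, which covers counting error only. The 11 macrophage markers, among them Csf1r, Adgre1, Cd68, the C1q genes and Lyz2, summed to 27638 to 34968 CPM in the DMSO and I.P. mice and to 38390 to 41337 CPM in the S.C. mice. Lyz2, a lysozyme, made up much of these sums, at 13316 to 18425 CPM in the DMSO and I.P. mice and 21375 and 25046 CPM in the S.C. mice. Libraries differed within groups. Over 9328 genes whose mean reached 5 CPM, the log2 CPM of S.C. mice 1 and 2 correlated at r = 0.77, those of the DMSO mice at 0.96, and I.P. mouse 1 correlated with the other I.P. mice at 0.87 to 0.88 while those correlated with each other at 0.93 to 0.96. In the numbers of the sample titles I.P. mouse 1 comes before the S.C. and DMSO mice and I.P. mice 2 to 4 come after them, so that title order and treatment cannot be told apart for the other 7 mice. In bulk RNA, fewer cells of a type and less RNA per cell cannot be told apart. A gene met the criterion of the study for differentially expressed genes (DEGs) if its edgeR P, before adjustment, was under 0.05 and it differed by 2-fold or more, and this is the criterion meant below. Leaving out a DMSO or S.C. mouse left a single mouse in that group. Whether the criterion was met in such a fit rests on the spread of the other group alone.

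Per kilobase of exon, Ccr1 was the highest of the 7 receptors in DMSO TAMs, at 119 ± 10.1 CPM per kb (SD, n = 2). Cxcr2 at 26.3 ± 7.67, Ccrl2 at 22.6 ± 12.04, Cx3cr1 at 17.4 ± 8.44 and Ccr2 at 10.3 ± 2.02 CPM per kb followed, and in this run of 4 each gene's range overlapped that of the next. Cxcr4 stood at 4.59 ± 1.77 and Ccr7 at 0.470 ± 0.50 CPM per kb, each below the range of the gene before it. In I.P. TAMs the order of levels was Ccr1 (95.3 ± 34.7), Ccrl2 (58.2 ± 42.3), Cxcr2 (17.6 ± 7.59), Cxcr4 (11.0 ± 7.53), Cx3cr1 (6.33 ± 4.40), Ccr2 (1.97 ± 0.778) and Ccr7 (0.640 ± 0.398 CPM per kb, n = 4), and each range overlapped the next. In S.C. TAMs Ccrl2, at 172 ± 34.3 CPM per kb, stood above Ccr1 at 121 ± 45.2, but their ranges overlapped (n = 2). Cxcr2 followed at 38.7 ± 24.4, Cx3cr1 at 19.6 ± 5.58, Ccr2 at 10.2 ± 1.67, Cxcr4 at 8.96 ± 6.01 and Ccr7 at 3.77 ± 2.99 CPM per kb. Among these, Cxcr2 and Cx3cr1 overlapped, as did Ccr2 with Cxcr4 and Cxcr4 with Ccr7.

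**Figure D1:**
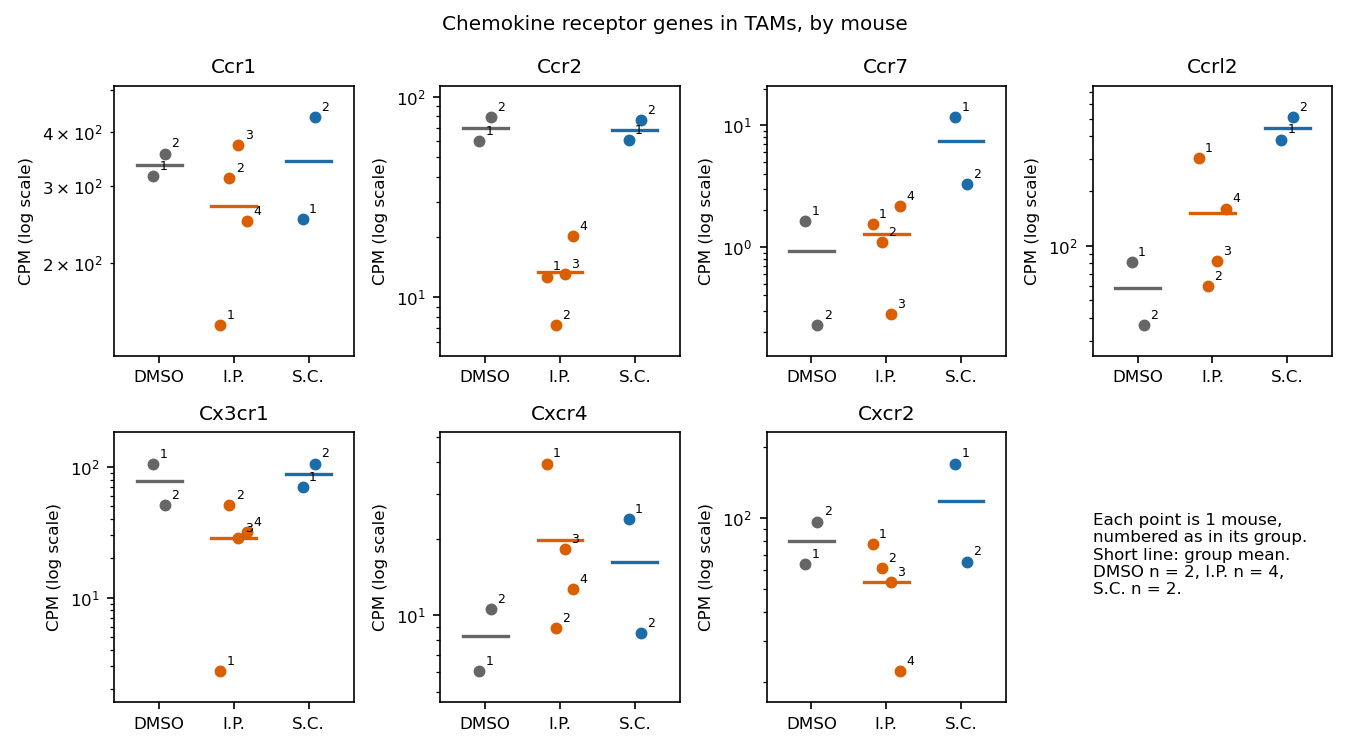
Level of each chemokine receptor gene in TAMs, in CPM on a log axis, with 1 point per mouse numbered within its group and a short line at the group mean (DMSO n = 2, I.P. n = 4, S.C. n = 2). Ccr2 lay between 7.30 and 20.1 CPM in the I.P. mice, below the DMSO and S.C. mice, and Ccrl2 lay at 384 and 509.7 CPM in the S.C. mice, above all other mice.

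Ccr2 was lower in TAMs of I.P. mice than in those of DMSO and S.C. mice. It was at 59.9 and 79.2 CPM in the DMSO mice, at 12.7, 7.30, 13.1 and 20.1 CPM in I.P. mice 1 to 4, and at 60.7 and 76.7 CPM in the S.C. mice. The counts behind these values were 883 and 1379, 120 to 345, and 903 and 1053. The I.P. mice lay below every other mouse, and the S.C. mice lay within the range of the DMSO mice. Against DMSO, Ccr2 was 5.25-fold lower after I.P. dosing (log2 fold change -2.39 ± 0.36 SE, edgeR adjusted p = 0.751), with the rank 2 by P among 12174 genes. After S.C. dosing the log2 difference was -0.04 ± 0.34 (edgeR adjusted p = 1). The routes differed by 2.37 ± 0.40 on the log2 scale, higher in S.C. mice (edgeR adjusted p = 0.205). Of 50-base stretches of Ccr2 exons, 1.91% also occur in other genes.

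The Ccr2 difference was set beside genes of Ly6C-high classical monocytes, the blood cells that carry CCR2. Of 12 such genes tested, F13a1, a transglutaminase subunit, was downregulated in I.P. mice, from 1076 and 2097 CPM in the DMSO mice to 462 to 836 CPM (log2 fold change -1.26 ± 0.33 SE, edgeR adjusted p = 0.98), and the other 11 did not meet the criterion. The median log2 fold change of the 12 was 0.28. F13a1 met the criterion in the S.C. mice too, at 332 and 652 CPM (-1.71 ± 0.51, edgeR adjusted p = 0.747), in which Ccr2 lay within the DMSO range. In S.C. against DMSO mice 2 of the 12 genes, Ly6c2 among them, were upregulated, 9 of 12 had a positive log2 difference, and the median was 1.52. Among all genes tested, 2% met the criterion in I.P. against DMSO mice and 5.06% in S.C. against DMSO mice. Ly6c2, the gene of the Ly6C antigen, had 41 and 56 counts in the DMSO mice, 0 to 125 in the I.P. mice, with 166 in S.C. mouse 1 and 391 in S.C. mouse 2. In I.P. mice, therefore, F13a1 and Ccr2 were lower while Ly6c2 overlapped between groups. The gate removed cells stained for Gr-1, an antibody that binds Ly6G and also Ly6C, and the part of monocytes in the Ccr2 difference was not tested.

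Ccrl2 was higher in TAMs of S.C. mice. It was at 80.9 and 36.6 CPM in the DMSO mice, at 303, 59.7, 82.3 and 159.7 CPM in I.P. mice 1 to 4, and at 384 and 509.7 CPM in the S.C. mice. The S.C. mice lay above all others, I.P. mice 1 and 4 lay clearly above the DMSO mice, I.P. mouse 3 lay just above them, and I.P. mouse 2 lay within their range. Against DMSO, Ccrl2 was 7.48-fold higher after S.C. dosing (log2 fold change 2.90 ± 0.49 SE, edgeR adjusted p = 0.746), with the rank 19 by P among 11680 genes. After I.P. dosing the log2 difference was 1.35 ± 0.65 (edgeR adjusted p = 0.98), and it was 0.78 without I.P. mouse 1. It met the criterion on leaving out I.P. mouse 2 (1.63) or I.P. mouse 3 (1.55). The S.C. mice exceeded the I.P. mice by 1.57 ± 0.56 (edgeR adjusted p = 0.492), which met the criterion but not without I.P. mouse 3 (1.33) or without S.C. mouse 2 (1.34).

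Melanoma markers, such as Dct and Tyrp1 of pigment synthesis, were set beside Ccrl2. Their sum was 583 and 643 CPM in the DMSO mice, 430 to 1653 CPM in the I.P. mice, and 2965 CPM in S.C. mouse 1 and 680 CPM in S.C. mouse 2. Of 6 tested, 3 (Dct, Tyrp1 and Sox10) were upregulated in S.C. against DMSO mice, with a median log2 fold change of 1.55, and 0 met the criterion in I.P. against DMSO mice (median 0.59). Among all genes tested, 5.06% and 2% met it in these comparisons. Ccrl2 was higher in S.C. mouse 2, which had the lower melanoma sum of the pair, and the part of tumor RNA in the Ccrl2 difference was not tested.

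Ccr7 was the least expressed of the receptors. It was at 1.63 and 0.230 CPM in the DMSO mice (24 and 4 counts), at 1.53, 1.09, 0.282 and 2.16 CPM in I.P. mice 1 to 4 (5 to 37 counts), and at 11.6 and 3.28 CPM in the S.C. mice (173 and 45 counts). Both S.C. mice lay above all other mice, while the DMSO and I.P. mice overlapped. The S.C. mice exceeded the I.P. mice by 2.55 ± 0.90 on the log2 scale (edgeR adjusted p = 0.489), which met the criterion. It no longer did so without S.C. mouse 1 (1.37) or I.P. mouse 2 (2.49), or with the mouse number as a block (2.25). Against DMSO the S.C. difference was 2.97 ± 1.30 (edgeR adjusted p = 0.94), or 1.81 without S.C. mouse 1 and 3.61, past the criterion, without S.C. mouse 2. The I.P. difference was 0.45 ± 1.02 (edgeR adjusted p = 0.983), and without DMSO mouse 2 it was -0.36.

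Ccr7 was set beside marker genes of other cells that carry CCR7, which did not all move one way. The summed dendritic cell markers were at 2.01 to 8.28 CPM in the DMSO mice, 1.46 to 4.67 CPM in the I.P. mice and 6.19 to 23.3 CPM in the S.C. mice, where Cd209a alone had 247 counts in S.C. mouse 1 and 0 in S.C. mouse 2. Of the dendritic cell markers, Flt3, Fscn1 and Ccl17 had at most 3 counts in any mouse. Ccl22 had 65 counts in S.C. mouse 1 and 1 in S.C. mouse 2, and Zbtb46 had 32 and 0. Counts in the I.P. mice ran from 1 to 57 for Ccl22 and from 0 to 44 for Zbtb46. Of the dendritic cell markers 0 of 3 tested met the criterion in S.C. against DMSO mice, of the T and NK cell markers 1 of 6 (higher), and of the B cell markers 2 of 3 (higher). Among all genes tested, 5.06% met it. The 4 B cell markers summed to 8.81 to 20.7 CPM in the DMSO and I.P. mice and to 25.5 to 29.8 CPM in the S.C. mice. The 11 T and NK cell markers summed to 2.99 to 21.4 CPM in the DMSO and I.P. mice and to 37.5 to 47.0 CPM in the S.C. mice. Within the S.C. group the markers differed in order. S.C. mouse 1, with the higher Ccr7, had the higher count of Cd209a and of Cd3e (23 against 1), but S.C. mouse 2 had the higher count of Cd4 (161 against 1), Cd3g (45 against 36) and Xcr1 (81 against 2). The part of these cells in the Ccr7 difference was not tested.

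Cx3cr1 was at 105 and 51.3 CPM in the DMSO mice, at 2.74, 51.0, 28.6 and 31.6 CPM in I.P. mice 1 to 4, and at 70.6 and 106 CPM in the S.C. mice. All I.P. mice lay below both other groups, but I.P. mouse 2 was only just below DMSO mouse 2, and I.P. mouse 1 lay far below its group. The I.P. difference from DMSO was -1.45 ± 0.79 on the log2 scale (edgeR adjusted p = 0.98). It met the criterion on leaving out I.P. mouse 1 (-1.07) or I.P. mouse 2 (-1.90). The S.C. mice differed from DMSO by 0.15 ± 0.46 (edgeR adjusted p = 1) and from the I.P. mice by 1.63 ± 0.79 (edgeR adjusted p = 0.621). The last of these met the criterion without I.P. mouse 1 (1.25), without I.P. mouse 2 (2.07) and with the mouse number as a block (2.81). An exon of Gm33858 overlaps Cx3cr1 on the opposite strand, and no strand setting of the counting was stated.

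Ccr1 was at 317 and 357 CPM in the DMSO mice, at 144, 313, 374 and 249 CPM in I.P. mice 1 to 4, and at 252 and 433 CPM in the S.C. mice. The groups overlapped, and I.P. mouse 1 was the lowest. The log2 difference from DMSO was -0.32 ± 0.35 after I.P. dosing (edgeR adjusted p = 0.98) and 0.00 ± 0.37 after S.C. dosing (edgeR adjusted p = 1). The S.C. mice differed from the I.P. mice by 0.34 ± 0.40 (edgeR adjusted p = 0.873).

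Cxcr4 was at 6.04 and 10.6 CPM in the DMSO mice, at 39.4, 8.94, 18.2 and 12.7 CPM in I.P. mice 1 to 4, and at 23.9 and 8.52 CPM in the S.C. mice. I.P. mouse 1 was the highest, and both treated groups overlapped with DMSO. The log2 difference from DMSO was 1.24 ± 0.59 after I.P. dosing (edgeR adjusted p = 0.98), which was 0.67 without I.P. mouse 1 and 1.50, past the criterion, without I.P. mouse 2. After S.C. dosing it was 0.93 ± 0.70 (edgeR adjusted p = 1), which was 1.46, past the criterion, without S.C. mouse 2 and close to 0 without S.C. mouse 1. The S.C. mice differed from the I.P. mice by -0.29 ± 0.66 (edgeR adjusted p = 0.954).

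Cxcr2 was at 63.6 and 96.7 CPM in the DMSO mice, at 77.4, 61.4, 53.3 and 22.3 CPM in I.P. mice 1 to 4, and at 171 and 65.3 CPM in the S.C. mice. S.C. mouse 1 was the highest and I.P. mouse 4 the lowest, and the groups overlapped. The log2 difference from DMSO was -0.59 ± 0.43 after I.P. dosing (edgeR adjusted p = 0.98) and 0.53 ± 0.53 after S.C. dosing (edgeR adjusted p = 1). The latter was 1.03, past the criterion, without S.C. mouse 2 and -0.32 without S.C. mouse 1. The S.C. mice exceeded the I.P. mice by 1.14 ± 0.51 (edgeR adjusted p = 0.595), or by 1.37 without I.P. mouse 1 and 1.67 on leaving out S.C. mouse 2, both past the criterion, and by 0.28 without S.C. mouse 1. Of 50-base stretches of Cxcr2 exons, 4.01% also occur in other genes, spread over 107 of them.

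Cxcr2 was set beside the neutrophil markers, as neutrophils carry most CXCR2. These summed to 86.5 to 121 CPM in the DMSO and I.P. mice, and to 123 and 453 CPM in the S.C. mice. In the DMSO and I.P. mice, Mmp8 (24.2 to 60.5 CPM) and Csf3r (24.8 to 58.1 CPM) made up much of these sums. There S100a8 reached at most 21.2 CPM, S100a9 8.09, Ngp 2.17 and Ltf 0.892 CPM. Of the 9 markers tested, 6 were upregulated in S.C. against DMSO mice and 0 were downregulated, where 5.06% of all genes met the criterion. The granule gene Ltf was at 1.61 CPM in S.C. mouse 1 and 28.3 CPM in S.C. mouse 2, and Ngp was at 4.44 and 60.3 CPM, while Cxcr2 was higher in S.C. mouse 1 than in S.C. mouse 2. Csf3r, the G-CSF receptor of neutrophils, was at 24.8 to 80.2 CPM over the 8 mice, with a log2 difference of 0.42 ± 0.64 between S.C. and DMSO mice (edgeR adjusted p = 1). The part of neutrophils in the Cxcr2 values was not tested.

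Counted over the 7 receptors, few met the criterion against DMSO. In I.P. against DMSO mice, 1 of 7 receptors (Ccr2, downregulated) met it, where 2% of the 12174 genes tested did. In S.C. against DMSO mice, 1 of 7 (Ccrl2, upregulated) met it, where 5.06% of 11680 genes did. In S.C. against I.P. mice, 3 of 7 (Ccr2, Ccr7 and Ccrl2, all higher in S.C. mice) met it, where 7.05% of 12206 genes did. The median log2 difference of the 7 receptors was -0.32, 0.53 and 1.57 in these comparisons, and that of all genes tested was 0.02 in each.

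The main fit took each pair of groups with all its mice, the gene filter and no block. In it, no receptor had an adjusted p under 0.05 by edgeR's quasi-likelihood test. Neither did any other gene (0% in each comparison), where 418, 632 and 1049 genes had an unadjusted P under 0.05. Without the gene filter, 10 genes passed in S.C. against DMSO mice. With all 3 groups in 1 fit, 4 passed there and 2 in S.C. against I.P. mice. No receptor was among these. With edgeR's likelihood ratio test 10, 179 and 265 genes passed, and with DESeq2 19, 107 and 234 did. The receptor among them was Ccr2 for I.P. against DMSO by both tools (adjusted p = 1.73e-05 and 3.54e-05), Ccrl2 for S.C. against DMSO (5.11e-05 and 4.72e-07) and Ccr2 for S.C. against I.P. (0.000103 and 0.00013). In the quasi-likelihood fit used here the adjusted p of these values ranged from 0.205 to 0.751. Another setting of that test called Ccrl2 in S.C. against DMSO mice. With the mouse number as a block, its adjusted p was 0.0231, where 19 genes passed. With those numbers crossed between mice, 2 genes passed and 0 receptors did. Fits without S.C. mouse 1 or 2 kept a single S.C. mouse, so only the log2 fold change of Ccrl2 is given (3.09 and 2.65).

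The groups did not overlap for 2 of 7 receptors (Ccr2 and Cx3cr1) in I.P. against DMSO mice, where 14.2% of all genes tested were so. They did not overlap for 2 of 7 (Ccr7 and Ccrl2) in S.C. against DMSO mice, against 34.3% of all genes, and for 4 of 7 (Ccr2, Ccr7, Ccrl2 and Cx3cr1) in S.C. against I.P. mice, against 18.5%. The comparisons with DMSO share the same 2 control mice. For 1 gene, the smallest two-sided p that an exact permutation test allows is 0.133 with 4 mice against 2 and 0.333 with 2 against 2.

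**Figure D2:**
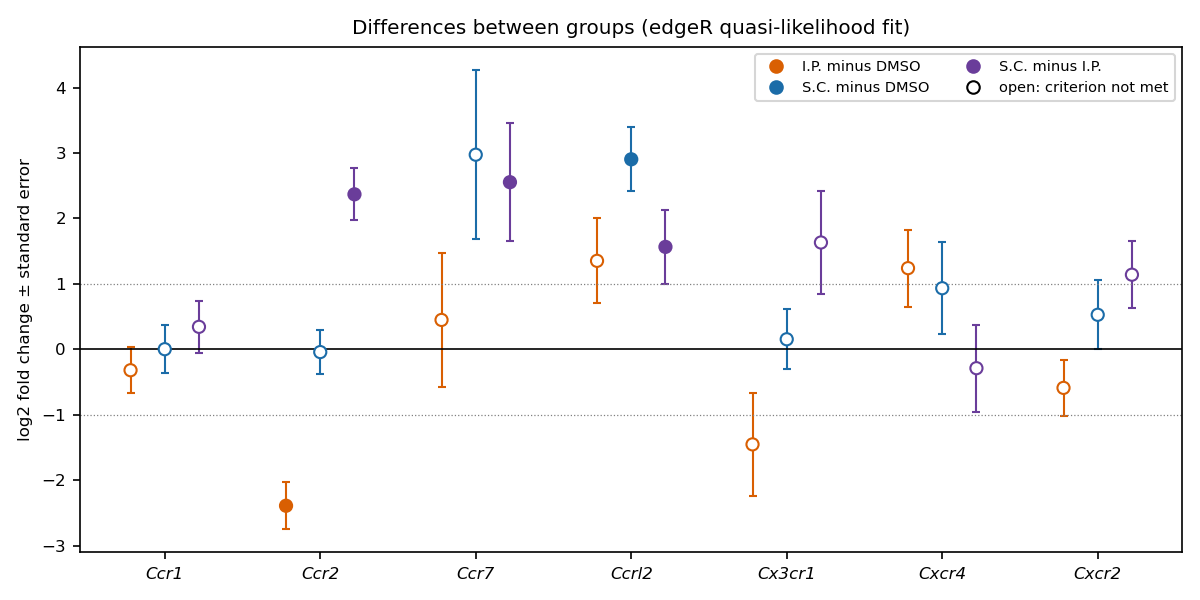
Log2 fold change of each receptor gene in the 3 comparisons, with standard errors from edgeR's quasi-likelihood fit; filled points met the criterion of P under 0.05 and 2-fold, whose 2-fold bounds are dotted. Ccr2 stood at -2.39 in I.P. against DMSO mice, Ccrl2 at 2.90 in S.C. against DMSO mice, and Ccr2, Ccr7 and Ccrl2 at 2.37, 2.55 and 1.57 in S.C. against I.P. mice.

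The ligands of these receptors were also counted, since TAMs secrete many of them. Of 18 listed, 13 were tested in each comparison. In I.P. mice 2 were downregulated (Ccl12 and Ppbp) and 0 were upregulated, with a median log2 fold change of -0.76. In S.C. mice 3 were upregulated (Ccl3, Cxcl1 and Cxcl2) and 0 were downregulated, with a median of -0.13. Between the routes, Ppbp was higher in S.C. mice and the median was 0.44. The shares of all genes that met the criterion were 2%, 5.06% and 7.05% in these comparisons.

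The 4 ligands of CCR2 were all tested. Ccl2, the leading CCR2 ligand, was at 2558 and 2707 CPM in the DMSO mice, 1801, 1701, 1572 and 1178 CPM in I.P. mice 1 to 4, and 2450 and 1357 CPM in the S.C. mice. The treated mice all lay below both DMSO mice, with log2 differences of -0.76 ± 0.24 for I.P. mice and of -0.50 ± 0.38 for S.C. mice, both under the 2-fold bound. Ccl7 was at 2610 and 2675 CPM in the DMSO mice, 1157 to 1547 CPM in the I.P. mice, and 2073 and 1436 CPM in the S.C. mice, with a log2 difference of -0.93 ± 0.22 for I.P. mice, also under 2-fold. Ccl12, a mouse CCR2 ligand, met the criterion in I.P. mice, at 1556 and 1984 CPM with DMSO and 355, 868, 981 and 414 CPM with I.P. dosing (log2 difference -1.44 ± 0.42, edgeR adjusted p = 0.98). In S.C. mice Ccl12 was at 1280 and 467 CPM (-1.05 ± 0.52, edgeR adjusted p = 0.995). Ccl8 was at 1997 and 1623 CPM with DMSO, 637, 842, 2380 and 713 CPM with I.P. dosing, and 2254 and 1130 CPM with S.C. dosing, and its groups overlapped. Ccr2 itself was lower in the I.P. mice alone, whereas Ccl2, Ccl7 and Ccl12 lay below both DMSO mice in the treated mice of both routes.

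Ligands of CXCR2 differed in direction. Ppbp, the platelet basic protein gene, was at 37.9 and 123 CPM in the DMSO mice, 19.1, 12.8, 13.5 and 11.7 CPM in I.P. mice 1 to 4, and 49.4 and 69.0 CPM in the S.C. mice. The I.P. mice lay below both other groups, as they did for Ccr2, with log2 differences of -2.50 ± 0.42 from DMSO (edgeR adjusted p = 0.98) and 2.05 ± 0.32 between S.C. and I.P. mice (edgeR adjusted p = 0.205). Cxcl2 was at 15.5 and 29.1 CPM in the DMSO mice, 608, 16.2, 24.0 and 22.2 CPM in I.P. mice 1 to 4, and 450 and 473 CPM in the S.C. mice. I.P. mouse 1 thus lay with the S.C. mice and apart from its group, and the S.C. difference from DMSO was 4.34 ± 0.44 (edgeR adjusted p = 0.362). Cxcl1 was also high in I.P. mouse 1 and both S.C. mice, at 1.63 and 5.17 CPM with DMSO, 154, 2.25, 2.77 and 2.10 CPM with I.P. dosing, and 108 and 149.98 CPM with S.C. dosing.

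Of the CCR1 ligands, Ccl6 was the highest, at 2567 and 3879 CPM in the DMSO mice, 1457 to 3085 CPM in the I.P. mice, and 3668 and 3070 CPM in the S.C. mice. Ccl3 was at 139 and 175 CPM with DMSO, 566, 202, 196 and 215 CPM with I.P. dosing, and 431 and 246 CPM with S.C. dosing. All treated mice lay above both DMSO mice, and the log2 difference was 1.08 ± 0.38 for S.C. mice (edgeR adjusted p = 0.842) and 0.90 ± 0.46 for I.P. mice (adjusted p = 0.98). Ligands of the other receptors were scarce. Ccl19 and Ccl21a, the CCR7 ligands, and Rarres2, which encodes the chemerin that CCRL2 binds, had 0 counts in all 8 mice. Cxcl12, the CXCR4 ligand, had at most 15 counts and Cx3cl1, the CX3CR1 ligand, at most 42, both in S.C. mouse 2.

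**Figure D3:**
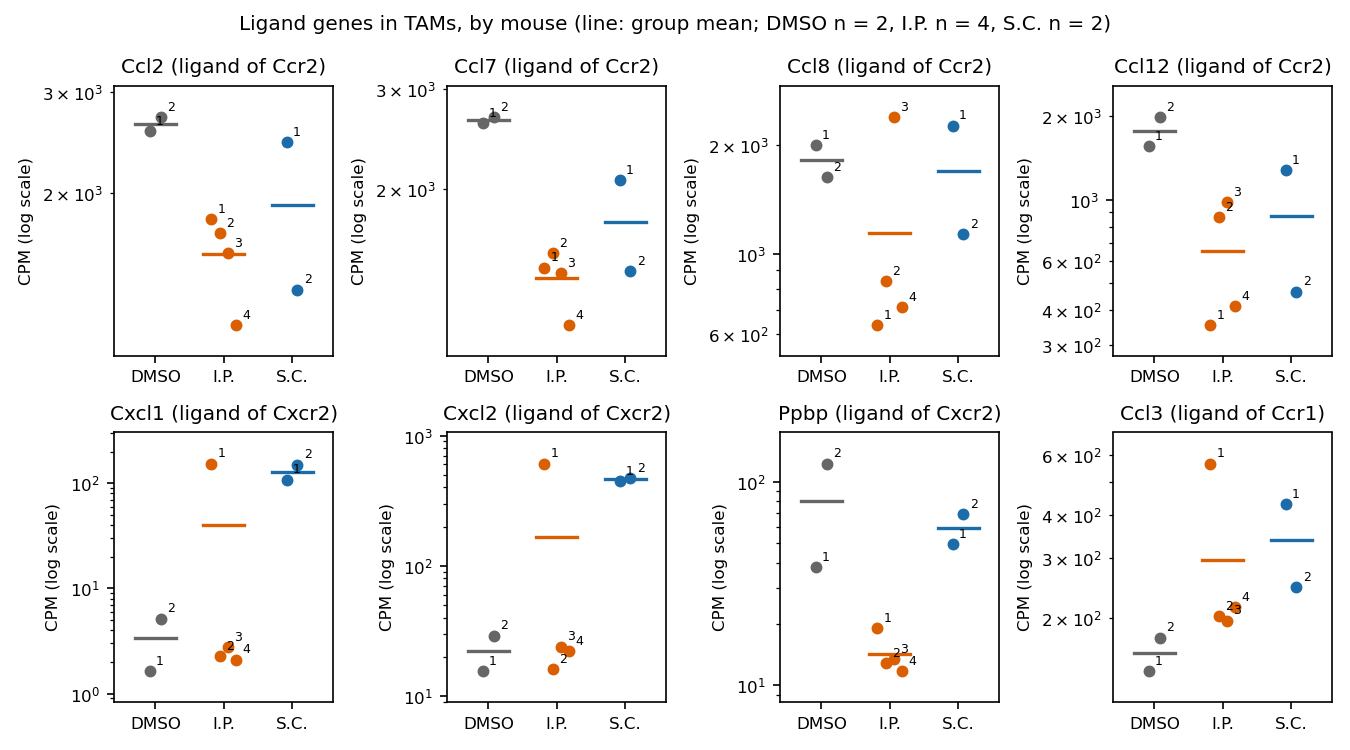
Ligand genes of Ccr2, Cxcr2 and Ccr1 in TAMs, in CPM on a log axis, with 1 point per mouse numbered within its group and a line at the group mean (DMSO n = 2, I.P. n = 4, S.C. n = 2). Ppbp lay between 11.7 and 19.1 CPM in the I.P. mice, below the other 4, and Cxcl2 was at 608 CPM in I.P. mouse 1 and 450 and 473 CPM in the S.C. mice, with the other 5 mice at 15.5 to 29.1 CPM.

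Of 16 other chemokine receptor genes, 6, 4 and 5 were tested in I.P. against DMSO, S.C. against DMSO and S.C. against I.P. mice, and 0 met the criterion in any of them. Ccr3, which lies between Ccr1 and Ccr2, was at 0 to 10.2 CPM. Cxcr1, the partner of Cxcr2 for ELR+ chemokines, had at most 3 counts.

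Of 28 genes of the signal behind chemokine receptors, from G protein subunits to arrestins, 27 were tested. In I.P. against DMSO mice 0 met the criterion, where 2% of all genes did. In S.C. against DMSO mice Rgs1 and Rgs2 were upregulated, where 5.06% of all genes met it. Between the routes Grk5 was lower in S.C. mice, where 7.05% of all genes met it. Rgs1 and Rgs2 encode GTPase-activating proteins that shorten signalling by G proteins. Rgs1 was at 356 and 317 CPM in the DMSO mice, 964, 485, 548 and 703 CPM in I.P. mice 1 to 4, and 804 and 958 CPM in the S.C. mice. All treated mice lay above both DMSO mice, with log2 differences of 1.36 ± 0.30 for S.C. mice (edgeR adjusted p = 0.747) and 0.99 ± 0.31 for I.P. mice (adjusted p = 0.98), the latter just under 2-fold. Rgs2 was at 69.4 and 57.5 CPM with DMSO, 308, 61.9, 92.3 and 84.1 CPM with I.P. dosing, and 193 and 321 CPM with S.C. dosing (S.C. 1.99 ± 0.38, edgeR adjusted p = 0.747).

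The patrolling monocyte genes, of which Cx3cr1 is a marker, had 6 of 7 tested. In I.P. against DMSO mice 0 of the 6 met the criterion, 3 had a positive log2 difference and the median was -0.07. In S.C. against DMSO mice 1 of the 6 met it (5.06% of all genes did), 6 were positive and the median was 1.05. In S.C. against I.P. mice 2 of the 6 met it (7.05% of all genes did), 6 were positive and the median was 1.35. Nr4a1, the nuclear receptor these monocytes need, was at 7.73 and 6.14 CPM in the DMSO mice, 165, 6.75, 5.02 and 15.2 CPM in I.P. mice 1 to 4, and 263 and 273 CPM in the S.C. mice. It was upregulated in S.C. mice (log2 fold change 5.25 ± 0.36 SE, edgeR adjusted p = 0.131), in which the log2 difference of Cx3cr1 from DMSO was 0.15 ± 0.46. In I.P. mouse 1 Nr4a1 was high while Cx3cr1, at 2.74 CPM, was the lowest of the 8 mice. Nr4a1 is also an immediate early gene.

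Across the 8 mice, correlations of log2 CPM between the 7 receptors ranged from -0.79 to 0.82. Of the pairs, the highest correlation was that of Ccr1 with Cx3cr1 (Pearson's r = 0.82, Spearman's rho = 0.52), which was -0.13 without I.P. mouse 1 and S.C. mouse 2, and so rested on those mice. Ccr7 and Ccrl2 correlated at r = 0.79 (rho = 0.81), or 0.64 without S.C. mouse 1 and DMSO mouse 2. Cx3cr1 and Cxcr4 correlated at r = -0.79 (rho = -0.71), or -0.45 without I.P. mouse 1 and S.C. mouse 2. These are descriptions over mice that share treatments and libraries.

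Among 9327 other genes whose mean reached 5 CPM, those most like Ccr2 over the 8 mice were Ppbp (r = 0.90, rho = 0.83), Mgl2 (r = 0.88, rho = 0.69), a lectin of alternatively activated macrophages, and B3gnt7 (r = 0.88, rho = 0.81). Without I.P. mice 1 and 2, the mice farthest from the median of Ccr2, these were 0.93, 0.95 and 0.94. Those most like Ccrl2 were Dusp1 (r = 0.97), a MAP kinase phosphatase, Pim3 (r = 0.96), a kinase, and Cd83 (r = 0.96), a surface protein of activated dendritic cells and macrophages, with rho from 0.90 to 0.93. They were 0.93 to 0.95 without the S.C. mice. Cx3cr1 was most like Ppid, Nvl and Chordc1 (each r = 0.99, and 0.93 to 0.95 without I.P. mouse 1 and S.C. mouse 2). Ccr1 was most like Mad2l1 (r = 0.99), Zranb2 and Topbp1 (each 0.97). Cxcr4 was most like Rabac1, Msrb1 and Urm1 (each 0.97). Cxcr2 was most like 2500004C02Rik, Vmn2r-ps129 and Gm15645 (each 0.99), of which the last 2 are named as a pseudogene and a predicted gene. Ccr7, under 5 CPM on average, was left out.

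**Figure D4:**
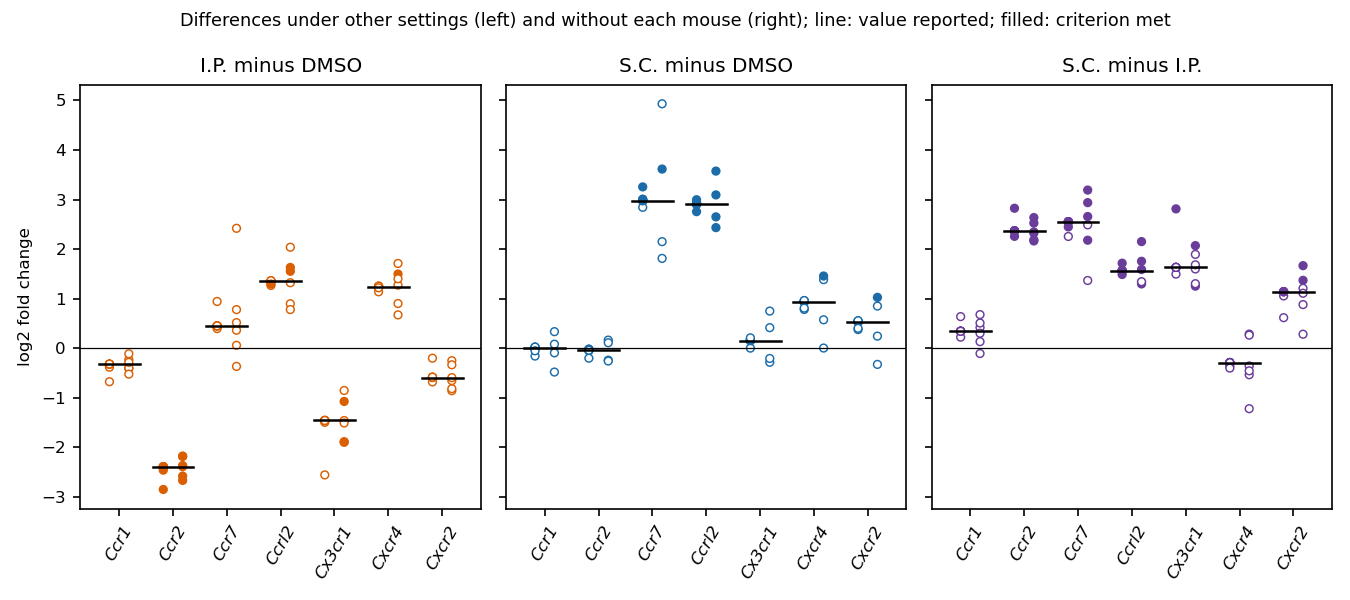
Log2 fold change of each receptor gene under the other settings (left points) and with each mouse left out (right points) in the 3 comparisons, with a line at the value reported and filled points where the criterion was met. Ccr2 met it throughout in I.P. against DMSO mice, between -2.85 and -2.17, and Ccrl2 throughout in S.C. against DMSO mice, between 2.43 and 3.57.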

How the data were processed

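RNA-seq counts of TAMs of 8 mice were used (DMSO 2, I.P. 4, S.C. 2), grouped by the source name and agent in the labels. The counts were deposited by the authors as whole numbers per gene symbol, without normalization; their methods name bowtie2 and RSEM, while the submitters' processing notes name TopHat2, edgeR and mm10. The 7 receptors and the gene lists were chosen with earlier results of these data known.

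All genes were fitted in R 4.3.3 with edgeR 4.0.16 (filterByExpr, minimum count 10 and total 15; TMM; two-sided quasi-likelihood test), each pair of groups on its own. Benjamini-Hochberg adjustment ran over all genes tested. The DEG criterion, from the study, was P under 0.05 before adjustment and a 2-fold or larger difference. SE is the log2 fold change divided by the square root of F. Log2 CPM used a prior count of 2. All 7 receptors passed the filter in each comparison.

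Named genes were the 7 receptors, list genes averaging 5 CPM or more that met the criterion (at most 4 per list and comparison), the highest ligand of each receptor, and for each receptor the 3 genes most like it. The other ligands of Ccr2, and the other list and marker genes given with values (among them Ccr3, Cxcr1, Ly6c2, Csf3r, Cd209a, Cd3e, Cd3g, Cd4, Xcr1 and Grk5), were named after their values were seen.

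On simulated data, 88%, 74% and 72% of 200 genes changed 4-fold were recovered for I.P. against DMSO (12174 genes), S.C. against DMSO (11680) and S.C. against I.P. (12206). Replicate counts differed by more than sampling noise in every group, so that none was a duplicate; nothing states that the mice were housed or processed apart, and P values measure the spread between these mice. Alternatives were no filter, 1 CPM in 2 samples as the filter, RLE or library size scaling, the likelihood ratio test, DESeq2 1.42.0, all 3 groups in 1 fit, the mouse number as a block, and each mouse left out. A block with crossed numbers was chosen after seeing the data.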

Additional observations from a re-analysis of the deposited data

Results flagged for a closer look

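Ccr2, Ccr7 and Ccrl2 were singled out because they met the criterion in the direct test of S.C. against I.P. mice. That test compares the dosing groups, in which route and dose cannot be told apart. S.C. minus I.P., on the log2 scale, was 2.37 for Ccr2, 2.55 for Ccr7 and 1.57 for Ccrl2 (edgeR adjusted p = 0.205 for Ccr2, 0.489 for Ccr7 and 0.492 for Ccrl2), with both S.C. mice above all 4 I.P. mice for each. Against DMSO, Ccr2 was lower with I.P. dosing and near DMSO with S.C. dosing. Both S.C. mice exceeded both DMSO mice for Ccrl2, which met the criterion, and for Ccr7, which did not. Groups did not overlap for 34.3% of all genes tested in S.C. against DMSO mice, and for 18.5% in S.C. against I.P. mice. No receptor had an I.P. mouse apart from its group by Dixon's criterion for 4 mice. Adjusted p values over the alternatives with 2 or more mice per group ran down to 0.000103 for Ccr2 and 0.162 for Ccr7 (both edgeR's likelihood ratio test). For Ccrl2 the lowest was 0.153 (DESeq2).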

How the results depend on the processing

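With 2 to 4 mice per group, values of single receptors moved with each mouse, and the cause of the changes below was not tested. The counts below include fits that kept a single DMSO or S.C. mouse, whose spread came from the other group alone. Ccr2 in I.P. against DMSO mice met the criterion in 14 of 14 alternatives, Ccrl2 in S.C. against DMSO mice in 12 of 12, and Ccr2 in S.C. against I.P. mice in 14 of 14. Ccr7 and Ccrl2 in S.C. against I.P. mice did so in 11 and 12 of 14.

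In I.P. against DMSO mice, 1 receptor met the criterion, but 3 did with no gene filter, the likelihood ratio test or DESeq2 (with Ccrl2 and Cxcr4), 2 did with the replicate block (with Ccrl2), and 1 to 4 did with a mouse left out. In S.C. against DMSO mice, 1 did, but 2 did, with Ccr7, under no gene filter, DESeq2, the likelihood ratio test, the replicate block and all 3 groups in 1 fit, and 1 to 4 did with a mouse left out. In S.C. against I.P. mice, 3 did, but 5 did under no gene filter, the likelihood ratio test and DESeq2 (with Cx3cr1 and Cxcr2), 4 did with all 3 groups in 1 fit (with Cxcr2), 3 did with the replicate block, in which Cx3cr1 took the place of Ccr7, and 2 to 5 did with a mouse left out.

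In the labels, same-numbered mice shared only a number. Their deviations from the group means correlated at -0.187 and 0.017 (I.P. and DMSO), at -0.185 for both numbers (S.C. and DMSO) and at 0.169 and 0.019 (S.C. and I.P.). With the numbers crossed, 1 receptor met the criterion in S.C. against DMSO mice. No receptor then passed after adjustment, whereas Ccrl2 did with the numbers as given.

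Directions turned for small differences. With a mouse left out, the log2 fold change ran from -0.36 to 2.42 for Ccr7 in I.P. against DMSO mice. In S.C. against DMSO mice it ran from -0.48 to 0.34 for Ccr1, from -0.26 to 0.17 for Ccr2, from -0.28 to 0.75 for Cx3cr1 and from -0.32 to 1.03 for Cxcr2, and Ccr1 was -0.16 with library size only and -0.050 with the replicate block. In S.C. against I.P. mice it ran from -0.10 to 0.68 for Ccr1 and from -1.22 to 0.29 for Cxcr4. Of the 98, 84 and 98 values recomputed for single receptors in the 3 comparisons, 85, 67 and 78 kept their direction and their side of the criterion.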
